A study of Chlamydomonas reinhardtii with 45 samples.

Results

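Poly(A) RNA of *Chlamydomonas reinhardtii*, a unicellular green alga, was compared between a population acclimated to low light (LL) and one acclimated to medium light (ML) at the end of the night, 2 h before dawn (the −2 timepoint). Of the 45 libraries of the study, 6 belong to this comparison by their light and time labels, 3 from LL and 3 from ML. The study followed LL, ML, and high light (HL) populations at 5 timepoints, numbered in hours from dawn (−2, +2, +6, +10, and −10), to learn how the amount of light given by day shapes the daily program. LL cultures received 50 and ML cultures 200 µmol photons per square metre and second in the light phase, and HL cultures, which enter here only as a side view, received 1000. All of them were strain CC-5390, a cell-wall-deficient mt+ strain whose arginine requirement was complemented with *ARG7*, labelled wild type, and all were grown with 12 h of light at 28 °C and 12 h of darkness at 18 °C. They grew in aerated photobioreactors, were brought to an OD680 of 0.4 at the start of the dark phase, and had been dark for 10 h when sampled. LL cultures were first grown in ML because LL limits growth. Per the methods, replicates were independent cultures grown in different weeks, and every library comes from a whole culture of 1 strain.

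*Chlamydomonas* grows during the day and divides by multiple fission around nightfall, when the genes for DNA replication, mitosis, and chloroplast division are transcribed together. Its photoprotective proteins dissipate absorbed light as heat, and its carbon-concentrating mechanism pumps bicarbonate toward Rubisco when CO2 is scarce. Both are induced by light or low CO2, and at night the cells live from starch, through respiration and, where oxygen runs out, fermentation.

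The libraries differed in depth in a way that touches most of the values that follow. The deposited values are FPKM, fragment counts scaled by transcript length and library size, and the depth was read from the steps between low values. LL replicate 1 had 0.167 of the depth of ML replicate 1, LL replicates 2 and 3 had 0.892 and 0.852, and ML replicates 2 and 3 had 0.955 and 0.943. The remaining libraries of the study lay between 0.581 and 1.36. A single fragment was worth a median of about 0.136 FPKM in LL replicate 1 over the low genes examined. In the other 5 libraries the median was 0.0227 to 0.0266 FPKM. The worth of a fragment in a given gene depends on its transcript length. In LL replicate 1, 13849 genes were above 0, against 15276 to 15581 in each of the other 5. Across genes its log2 values correlated with those of the other LL libraries at Pearson's r of 0.95 to 0.953, against 0.989 between LL replicates 2 and 3 and 0.983 to 0.99 within ML. Results are therefore given with and without LL replicate 1. The minus mating type marker *MID1* was listed at 0 in all 6 libraries.

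At the end of the night, 236 mRNAs were increased and 194 decreased in LL relative to ML, which is 1.62% and 1.33% of the 14602 genes tested (2.94% together), and the counts of called members in the gene lists are set against these shares without a test. Called mRNAs differed by more than 1 on the log2 scale with a Benjamini-Hochberg adjusted p under 0.01 in limma, fitted to log2(FPKM + 1), a scale that understates the change of low mRNAs. The median log2 fold change was 1.38 among the increases, −1.42 among the decreases, and −0.02 over all genes tested. Of all genes tested, 6950 had a log2 fold change above 0 and 7643 below 0. Of the increases 39 exceeded 2 on the log2 scale, and 33 decreases lay under −2. Many of the changed mRNAs were scarce: the median decrease had a mean of 0.926 FPKM in LL and 5.37 FPKM in ML, and the median increase 9.4 FPKM in LL and 2.23 FPKM in ML. A symbol or a description was given for 97 of the increases and 72 of the decreases.

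The 3 LL libraries lay wholly above the 3 ML libraries for 232 of the 236 increases, where 14.5% of all genes tested did so. They lay wholly below for 186 of the 194 decreases (14.4% of all). Calling favors such separation in the same 6 libraries, so these counts are given as a description. Without LL replicate 1, 188 mRNAs were increased and 139 decreased (1.29% and 0.952%), of which 178 and 121 were also called with it. The libraries of a group were unevenly placed among the calls. LL replicate 1 was the highest LL library for 174 of the increases (73.7%, against 42.6% of all genes tested), and it was at 0 for 42 of the decreases. LL replicate 3 was the lowest LL library for 203 of the increases (86.0%, against 27.2%), and without it 349 mRNAs were increased and 307 decreased. ML replicate 2 was the highest ML library for 146 of the decreases (75.3%, against 34.2%), and without it 111 mRNAs were decreased, 105 of them in both. ML replicate 3 was the lowest ML library for 120 of the decreases (61.9%, against 37.1%). Without both LL replicate 1 and ML replicate 2, 170 mRNAs were increased and 68 decreased. A fit to the 6 libraries alone, which estimates the spread from them only, called 17 increases and 1 decrease, all of them among those above, and 2828 genes had an unadjusted p under 0.05. The part of these libraries in the calls was not tested beyond these omissions. In a culture, fewer cells expressing an mRNA and less of it per cell cannot be told apart.

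**Figure D1:**
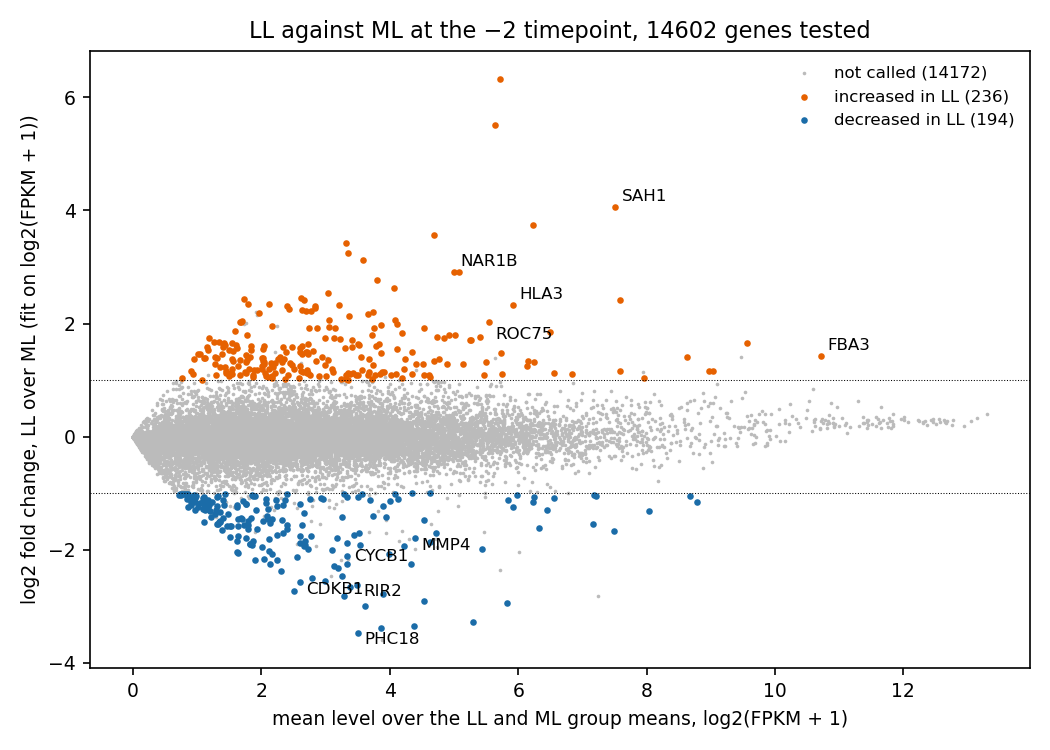
Log2 fold change of LL over ML at −2 (fit on log2(FPKM + 1)) against the mean level of the 2 groups on the log2(FPKM + 1) scale, 1 point per gene tested. The 236 increases (orange) reach levels above 1000 FPKM with *FBA3*, whereas the 194 decreases (blue) lie mostly at low levels; dotted lines mark log2 fold changes of 1 and −1.

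*SAH1* had the largest increase of the named mRNAs with annotation. It encodes S-adenosylhomocysteine hydrolase, which clears the product left after every methyl transfer from S-adenosylmethionine. *SAH1* stood at 447, 359, and 231 FPKM in LL replicates 1 to 3, against 19.5, 20.8, and 16.7 FPKM in ML replicates 1 to 3. Every LL library was far above every ML library. *SAH1* rose by 4.07 ± 0.24 on the log2 scale (SE, adjusted p = 1.1e-14), and by 3.86 without LL replicate 1. In the HL libraries it stood at 13.3, 16.2, and 14.2 FPKM, which is below the ML values.

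Of 25 tested genes of carbon concentration, 3 were increased and none decreased, with a median log2 fold change of 0.40, and 22 of the 25 were above 0. The median was 0.25 without LL replicate 1 and 0.21 without ML replicate 2 as well, with 2 increases in either case. *NAR1B*, also known as LCIA and implicated in bicarbonate passage across the chloroplast envelope, had 104, 37.4, and 27.8 FPKM in LL, against 4.7, 3.72, and 8.94 FPKM in ML. It rose by 2.92 ± 0.29 (SE, log2, adjusted p = 1.9e-09). *HLA3*, a bicarbonate transporter of the plasma membrane, had 163, 71.9, and 68.0 FPKM in LL, against 16.3, 12.7, and 26.0 FPKM in ML, a log2 fold change of 2.34 ± 0.23 (SE, adjusted p = 1.9e-09). For both, LL replicate 1 was the highest LL library and ML replicate 3 the highest ML library, and the groups did not overlap. Without LL replicate 1 the log2 fold changes were 2.37 and 1.93, both still called. *LCI1*, a further plasma membrane protein of inorganic carbon uptake, depended on that library: it had 40.0, 12.3, and 9.26 FPKM in LL, against 3.65, 4.57, and 6.7 FPKM in ML, and its log2 fold change of 1.60 ± 0.29 (SE, adjusted p = 0.00012) became 1.00 without LL replicate 1, where it was not called. *HLA3* was far more abundant by day: at +2 it averaged 3210 FPKM in LL and 2790 FPKM in ML.

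The other inorganic carbon genes followed for their roles did not pass the test. The periplasmic carbonic anhydrase gene *CAH1* had 171, 133, and 144 FPKM in LL, against 64.9, 57.1, and 119 FPKM in ML, without overlap, with a log2 fold change of 0.96 (adjusted p = 0.028). *LCR1*, a Myb regulator of low-CO2 genes, had a log2 fold change of 0.70 (adjusted p = 0.00011) and missed the fold threshold. *CCM1*, the regulator of CO2-responsive genes, had 23.8, 28.7, and 30.1 FPKM in LL, against 25.9, 27.7, and 22.4 FPKM in ML, and its groups overlapped. The mitochondrial carbonic anhydrase genes *CAH4* and *CAH5*, near-identical copies whose reads the counting could divide between them, had values of 0.74 and 0.86, also with overlap. *RHP1*, a Rhesus protein gene, had a log2 fold change of 0.00.

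Of 15 photoprotection genes tested, 4 were increased in the dark and none decreased, with a median of 0.34. The 4 genes are *LHCSR3A* and *LHCSR3B*, which encode the light-harvesting-like protein that dissipates excess excitation, and *ELIP9* and *ELIP2*, early light-induced proteins. *LHCSR3B* had 21.3, 14.6, and 11.6 FPKM in LL, against 3.35, 1.97, and 3.05 FPKM in ML. *LHCSR3A* had 15.6, 11.7, and 6.89 FPKM in LL, against 3.15, 2.05, and 2.48 FPKM in ML. The log2 fold changes were 2.13 ± 0.24 and 1.75 ± 0.24 (SE, adjusted p = 3e-08 and 1.4e-06), but the copies are near-identical, so their separate values are uncertain. *ELIP9* had 117, 156, and 149 FPKM in LL, against 32.3, 43.2, and 39.4 FPKM in ML, a log2 fold change of 1.85 ± 0.27 (SE, adjusted p = 5e-06). Here LL replicate 1 was the lowest of LL and still above all of ML. *ELIP2* had 5.64, 2.42, and 2.69 FPKM in LL, against 1.08, 1.13, and 0.143 FPKM in ML (log2 fold change 1.35, adjusted p = 3.9e-05).

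The photoprotective genes did not move as 1 block. *LHCSR1* had 12.9, 7.18, and 11.1 FPKM in LL, against 14.4, 21.3, and 21.7 FPKM in ML, a log2 fold change of −0.84 that missed the threshold (adjusted p = 0.039). *ZEP1*, zeaxanthin epoxidase, had a log2 fold change of 0.97 (adjusted p = 4.2e-09), just short of the fold threshold, with 85.4, 64.3, and 58.3 FPKM in LL, against 35.9, 34.1, and 33.2 FPKM in ML. The violaxanthin de-epoxidase gene *CVDE1* stood at 0.63 and *ELIP3* at 0.81, both likewise with no overlap between groups. *ELIP4*, *ELIP5*, *ELIP6*, *ELIP7*, *ELIP8*, and *ELIP10* ranged from −0.37 to 0.34 and none was called. The stress-induced antenna gene *LHCBM9* was at 0.26 with overlapping groups, and *PSBS1* and *PSBS2* were at or near 0 in all 6 libraries.

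*ROC75* was the 1 increase among 9 clock genes tested, whose names come from altered rhythms of chloroplast bioluminescence. It had 66.7, 75.9, and 80.7 FPKM in LL, against 16.4, 19.3, and 16.6 FPKM in ML, and rose by 2.03 ± 0.15 (SE, log2, adjusted p = 5.6e-12). LL replicate 1 was the lowest of LL, and without it the log2 fold change was 2.11. The HL libraries had 19.0, 25.0, and 33.2 FPKM. *ROC40* and *ROC15*, whose mRNAs were also abundant at this time, were at 0.25 and 0.20 and not called, and *ROC7*, *ROC55*, *ROC59*, *ROC66*, *ROC104*, and *ROC114* lay between −0.11 and 0.04.

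**Figure D2:**
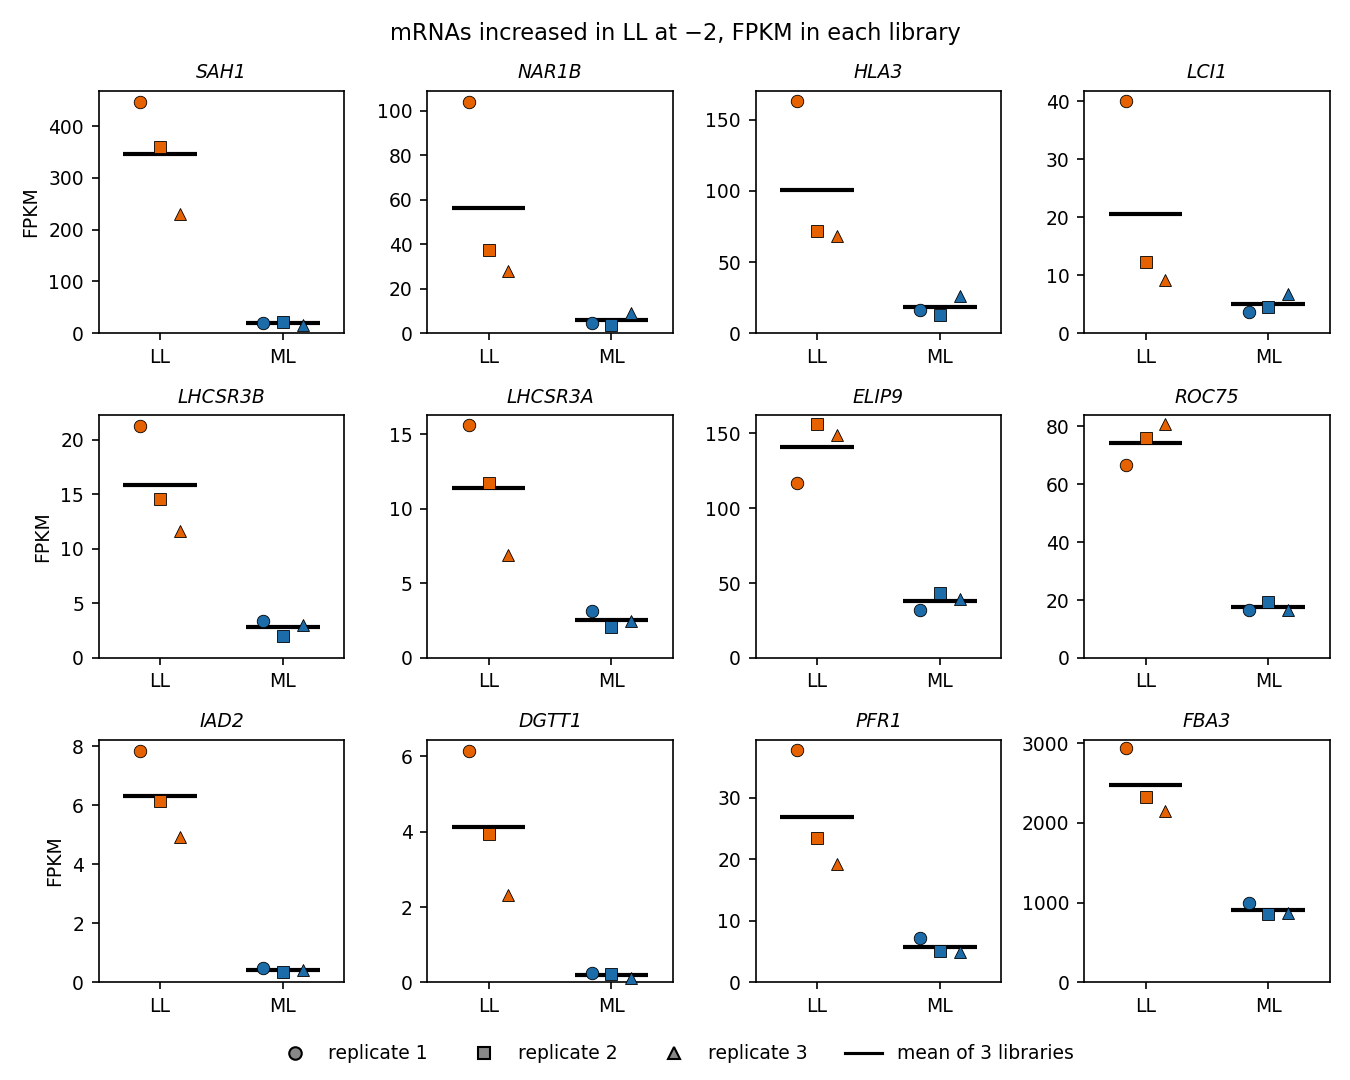
FPKM of 12 increased mRNAs in each LL (orange) and ML (blue) library at −2, with the replicate shown by the marker and the mean of 3 libraries by the bar. In none of the 12 do LL and ML overlap, and LL replicate 1 is the highest LL library except for *ELIP9* and *ROC75*.

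Among genes of dark metabolism, 3 of 17 of hydrogenase and fermentation were increased and none decreased (median 0.19). *PFR1*, pyruvate:ferredoxin oxidoreductase of the fermentative pathway, had 37.8, 23.4, and 19.3 FPKM in LL, against 7.19, 5.07, and 5.03 FPKM in ML, and rose by 2.00 ± 0.19 (SE, log2, adjusted p = 7.2e-10). *HCP1* and *HCP4*, hybrid-cluster proteins with an iron-sulfur center, rose by 1.75 and 1.33 (adjusted p = 7.2e-11 and 9.8e-09). *HCP4* had 125, 95.8, and 81.8 FPKM in LL, against 45.6, 31.6, and 40.8 FPKM in ML. The groups were separate for all 3 genes, and the HL libraries of *PFR1* (12.7, 9.01, and 10.2 FPKM) lay between them.

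The Calvin-Benson cycle list had 2 of 14 genes increased and all 14 above 0, with a median of 0.45. *FBA3*, the plastid fructose-bisphosphate aldolase, was the most abundant named change, with 2940, 2330, and 2150 FPKM in LL, against 1000, 858, and 868 FPKM in ML (log2 fold change 1.43 ± 0.16, SE, adjusted p = 3.7e-08). *PGK1*, the plastid phosphoglycerate kinase, was at 1.04 and fell short of the fold threshold, at 0.87 without LL replicate 1 and at 0.91 without ML replicate 2. Starch genes included 2 increases among 29 (median 0.21). The alpha-amylase gene *AMA3* had 35.6, 28.0, and 23.7 FPKM in LL, against 10.8, 8.11, and 9.82 FPKM in ML (1.50 ± 0.18, SE, log2, adjusted p = 9.6e-08), and *SBE1*, a starch branching enzyme gene, rose by 1.32.

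Lipid genes had 3 increases among 32 tested, with a median of 0.18, or 0.05 without LL replicate 1. *DGTT1*, an acyltransferase for the last step of triacylglycerol synthesis, was barely detected in ML, with 6.14, 3.94, and 2.33 FPKM in LL, against 0.263, 0.229, and 0.116 FPKM in ML. *FAD6*, the chloroplast omega-6 desaturase, was abundant, with 788, 661, and 642 FPKM in LL, against 339, 291, and 303 FPKM in ML. They rose by 2.03 ± 0.18 and 1.16 ± 0.15 (SE, log2, adjusted p = 1.1e-10 and 3.2e-07), and *BTA1*, for synthesis of the betaine lipid of the membranes, rose by 1.27. All 3 remained called without LL replicate 1.

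Chaperone genes changed in both directions, with 5 of 48 increased and 1 decreased (median −0.01), and 3 increases were called without LL replicate 1. *CPN10*, a cochaperonin, *CRT2*, the endoplasmic reticulum lectin calreticulin, and *HSP70C* rose by 1.92, 1.70, and 1.47 and remained called. *PDI2* and *BIP1* of the endoplasmic reticulum and the small heat shock gene *HSP22E*, which fell, were not called without that library. Among 52 antioxidant genes 2 were increased, where 1.62% of all genes tested were, and none decreased, or 1 without LL replicate 1. The increases were *MSD3*, a manganese superoxide dismutase, by 1.59, and *CAT2*, a catalase/peroxidase, by 1.51. The cytochrome oxidase assembly gene *COX17* rose by 1.38 ± 0.34 (SE, log2, adjusted p = 0.0035) and was not called without LL replicate 1 or without ML replicate 2.

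Further increases carry little annotation. *IAD2*, described as an indoleamine 2,3-dioxygenase (an enzyme that opens the indole ring of tryptophan in animals), had 7.84, 6.15, and 4.93 FPKM in LL, against 0.482, 0.358, and 0.421 FPKM in ML, a log2 fold change of 2.34 ± 0.11 (SE, adjusted p = 5.8e-18). *Cre16.g652300*, of a membrane protein family, had 180, 145, and 93.0 FPKM in LL, against 13.0, 7.03, and 8.0 FPKM in ML (log2 fold change 3.75). *Cre14.g609500*, a PWR motif protein gene, and *Cre12.g544450*, of the CSE family, rose by 2.42 and 2.26. The largest increase of all had neither symbol nor description: *Cre06.g297049* had 121, 126, and 62.4 FPKM in LL and 7.45, 7.54, and 1.57 FPKM in HL, against 0.896, 0, and 0 FPKM in ML (LL over ML log2 fold change 6.33 ± 0.53, SE, adjusted p = 5.8e-11). *Cre01.g003300*, also unannotated, had 134, 97.3, and 59.3 FPKM in LL, against 1.38, 0.361, and 1.63 FPKM in ML, and it was increased at all 5 timepoints, as were 3 others of the 236.

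Of 37 DNA replication genes tested, 11 were decreased and none increased, with a median log2 fold change of −0.72 (−0.02 over all genes tested), and 36 of the 37 were below 0. All LL libraries were below all ML libraries for 24 of the 37, against 14.4% of all genes tested. The summed level of the 37 genes was 103, 93.2, and 88.3 FPKM in LL and 119, 102, and 102 FPKM in HL, against 164, 293, and 144 FPKM in ML. ML replicate 2 was by far the highest, and the groups were separate without it as well. The number of decreases was 11 without LL replicate 1, 8 without ML replicate 2, and 8 without both, and the median was −0.65, −0.51, and −0.43 in that order.

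*RIR2*, the small subunit of ribonucleotide reductase, which makes deoxynucleotides, had 2.91, 1.32, and 1.23 FPKM in LL, against 12.6, 34.4, and 8.88 FPKM in ML, and fell by 2.63 ± 0.32 (SE, log2, adjusted p = 2e-07). Of the replicative helicase genes, *MCM2*, *MCM3*, *MCM4*, *MCM5*, and *MCM6* were decreased, by 1.19 to 1.95 on the log2 scale. *MCM6* had 0.436, 0.586, and 0.614 FPKM in LL, against 4.0, 9.31, and 3.11 FPKM in ML. The LL values of *MCM6* lay close together, at a few times the median worth of a fragment in LL replicate 1. *PCN1*, the sliding clamp of the replication fork, had 3.89, 4.31, and 3.7 FPKM in LL, against 11.8, 29.1, and 9.99 FPKM in ML (log2 fold change −1.71 ± 0.28, SE, adjusted p = 3e-05). *TOP2*, the topoisomerase that untangles sister chromatids, fell by 2.02, *RFA3*, which coats single-stranded DNA, by 1.91, and the helicase partner *CDC45* by 1.30. *POLA2*, of DNA polymerase alpha, was at −1.01 and was among the 3 genes, with *MCM4* and *CDC45*, not called without ML replicate 2.

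Of 32 cell cycle control genes, 4 were decreased and none increased (median −0.12), and 2 were decreased without both LL replicate 1 and ML replicate 2. *CDKB1*, the plant-type mitotic kinase, had 0.491, 0.484, and 0.627 FPKM in LL, against 6.01, 18.2, and 4.64 FPKM in ML, and fell by 2.57 ± 0.30 (SE, log2, adjusted p = 9.8e-08). The B-type cyclin gene *CYCB1* had 2.16, 1.67, and 1.98 FPKM in LL, against 10.4, 32.2, and 6.19 FPKM in ML, and fell by 2.25 ± 0.35 (SE, log2, adjusted p = 1.1e-05). *CYCA1*, an A-type cyclin gene, had 0, 0.727, and 0.649 FPKM in LL, against 3.99, 14.5, and 2.43 FPKM in ML, and fell by 2.18. The LL libraries lay close together for *CDKB1* and *CYCB1*, whereas *CYCA1* was at 0 in LL replicate 1. In all 3 genes ML replicate 2 stood above the other ML libraries. Without ML replicate 2 the log2 fold changes were −2.04, −1.62, and −1.55, all called, and *CDC20*, the activator of the anaphase promoting complex, was the member no longer called, at −0.94. The retinoblastoma gene *MAT3*, which sets the size at which cells divide, had 10.4, 9.82, and 10.5 FPKM in LL, against 11.8, 11.2, and 10.7 FPKM in ML, and was not called (log2 fold change −0.13).

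*FTSZ2* and *MIND1*, which build and place the ring that divides the chloroplast, were among the largest decreases. *MIND1* had 1.24, 0.926, and 0.954 FPKM in LL, against 7.62, 23.8, and 7.04 FPKM in ML, and *FTSZ2* had 0.491, 0.23, and 0.451 FPKM in LL, against 3.93, 11.5, and 3.67 FPKM in ML. They fell by 2.56 ± 0.35 and 2.25 ± 0.30 (SE, log2, adjusted p = 1.8e-06 and 9.4e-07). ML replicate 2 was again the highest and the groups did not overlap. The HL libraries lay between the groups, at 2.7, 2.41, and 1.87 FPKM for *MIND1*.

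**Figure D3:**
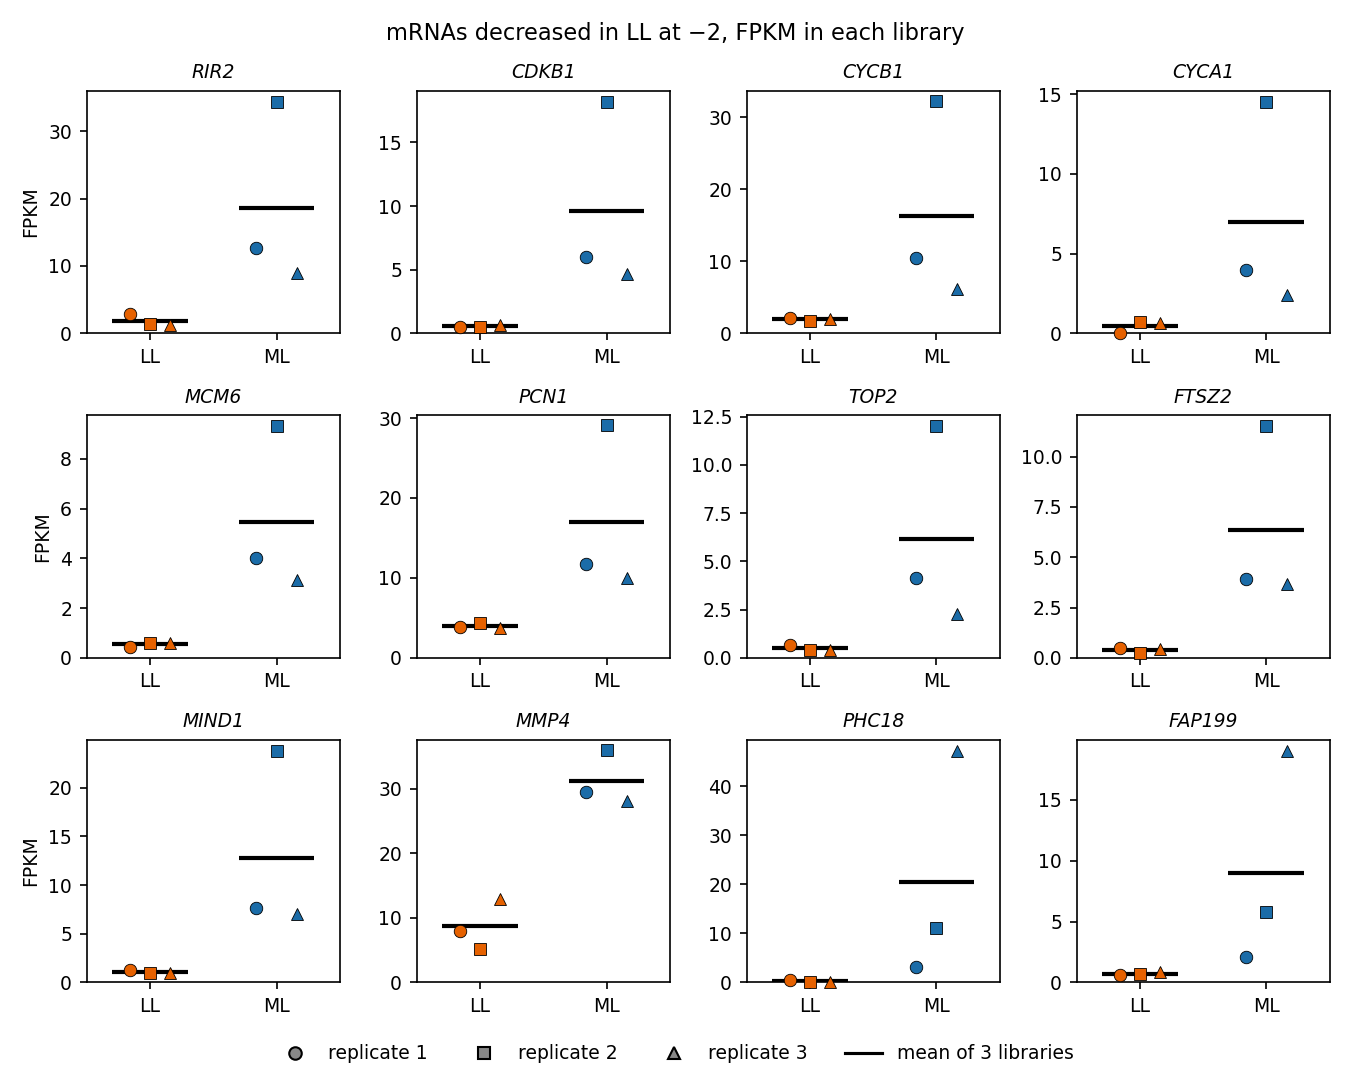
FPKM of 12 decreased mRNAs in each LL (orange) and ML (blue) library at −2, with the replicate shown by the marker and the mean of 3 libraries by the bar. The 9 genes of replication, mitosis, and chloroplast division share a high ML replicate 2, such as 34.4 FPKM for *RIR2*; *MMP4* is even within ML, and *PHC18* and *FAP199* are highest in ML replicate 3.

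Of 25 genes for gametolysin-type metalloproteinases, which digest the cell wall, 5 were decreased and none increased (median −0.36). There were 6 decreases without LL replicate 1, 4 without ML replicate 2, and 3 without both, with medians of −0.26, −0.26, and −0.21. *MMP4* had 7.95, 5.26, and 12.9 FPKM in LL, against 29.5, 36.1, and 28.1 FPKM in ML, and fell by 1.80 ± 0.22 (SE, log2, adjusted p = 2.1e-07), and its ML libraries differed little among themselves. *Cre09.g396772*, similar to gametolysin and autolysin, had 2.8, 1.2, and 1.07 FPKM in LL, against 9.85, 28.1, and 5.78 FPKM in ML, and fell by 2.32. The others were *MMP7*, *MMP29*, and *MMP32*, which fell by 1.02 to 1.54, and *MMP29* was not called without ML replicate 2, at −0.83. The arylsulfatase genes *ARS11* and *ARS14*, for enzymes that free sulfate outside the cell, were the 2 decreases of 28 sulfur limitation genes, at −1.07 and −1.08, and neither was called without ML replicate 2.

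Pherophorins, a family of hydroxyproline-rich extracellular proteins, changed in both directions, with 3 of 62 increased and 2 decreased (median 0.09), and 1 decreased without ML replicate 2. *Cre06.g292249* had 17.0, 12.9, and 9.24 FPKM in LL, against 1.47, 1.62, and 0.98 FPKM in ML (log2 fold change 2.55, adjusted p = 2.9e-14), and *Cre04.g221450* and *PHC8* rose by 2.05 and 1.28. *PHC18* had 0.543, 0, and 0.133 FPKM in LL and 0.217, 0.198, and 0.251 FPKM in HL, against 3.15, 11.0, and 47.1 FPKM in ML. Its log2 fold change of −3.47 ± 0.56 (SE, adjusted p = 2.3e-05) was the largest named decrease, and it rests on ML libraries that differ among themselves. Of 333 genes for flagellar associated proteins 5 were decreased, near the background of 1.33%, and none increased. The leucine-rich repeat protein gene *FAP349* and *FAP414* fell by 1.57 and 1.98. *FAP199*, with a lipase domain, had 0.605, 0.677, and 0.868 FPKM in LL and 0.415, 0.557, and 0.611 FPKM in HL, against 2.12, 5.79, and 19.0 FPKM in ML. The other pair, *FAP233* and *FAP413*, were at −1.02 and −1.01. *FAP233* was not called without ML replicate 2 (−0.82) and *FAP413* not without LL replicate 1 (−0.66), and 1 decrease of the list was left without both libraries.

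The pattern of *PHC18* and *FAP199*, with LL and HL both low and ML replicate 3 highest, was noted after the values were seen and also held for 3 other named decreases. *Cre09.g398400*, a transient receptor potential channel gene, had 0.677, 0.837, and 3.94 FPKM in LL, against 10.4, 18.8, and 32.5 FPKM in ML. The unannotated *Cre09.g398250* and *Cre09.g405100* fell by 3.35 and 3.38, and *Cre09.g405100* had 0, 0.47, and 1.97 FPKM in LL, against 4.69, 13.1, and 61.0 FPKM in ML. For *Cre09.g398250* the HL libraries were at 1.56, 2.11, and 3.29 FPKM. At +2 the ML libraries of all these genes rose in the same order, from replicate 1 to replicate 3. *PHC18* had 8.7, 42.7, and 133 FPKM there, and *FAP199* had 2.15, 8.74, and 26.3 FPKM. Whether the level belongs to the single ML culture rather than to the light was not tested. HL was not tested against ML here, since both comparisons would use the same ML libraries.

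Chlorophyll and heme synthesis leaned toward lower levels, with 21 of 28 genes below 0, a median of −0.35, and 2 decreases, *POR1* and *UROS1*. *POR1*, the light-dependent protochlorophyllide reductase, had 51.3, 52.6, and 74.7 FPKM in LL, against 146, 118, and 116 FPKM in ML (log2 fold change −1.09), and was at −0.99, not called, without LL replicate 1. *UROS1*, uroporphyrinogen-III synthase, was at 0.332 FPKM in LL replicate 1 and at 2.14 and 2.49 FPKM in the other LL libraries, against 5.13, 4.29, and 5.48 FPKM in ML, and was at −0.84, not called, without LL replicate 1. The list still had 2 decreases without LL replicate 1, in other members, and it had 4 without ML replicate 2 and 3 without both. The plastid protease gene *DEG1C* fell by 1.20, with 1.47, 2.44, and 2.3 FPKM in LL, against 6.27, 5.52, and 6.2 FPKM in ML, groups that do not overlap. Markers of gametes and zygotes, other states that a culture could hold, had a median of 0.10, with 17 of 23 tested above 0. The list had 2 decreases and no increase. These were *NSG1* and *NSG10*, the second of which encodes the dUTP diphosphatase that keeps uracil out of DNA. *NSG10* had 6.86, 2.7, and 2.43 FPKM in LL, against 12.1, 24.9, and 10.1 FPKM in ML (log2 fold change −1.75, adjusted p = 0.00013), and *NSG1* was at −1.40 and was not called without ML replicate 2.

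Of the other decreases, *Cre02.g095087*, without annotation, had 2.26, 0.953, and 2.08 FPKM in LL, against 8.83, 12.6, and 5.85 FPKM in ML. Of the 194 decreases, 73 were not called without LL replicate 1, and the largest of these with annotation are given here. *REX1S*, a subunit of the transcription and repair factor TFIIH, had 0, 21.4, and 5.09 FPKM in LL, against 24.3, 20.9, and 17.5 FPKM in ML, with overlap, and *Cre01.g005200*, a putative lipase gene, had 7.45, 8.58, and 19.8 FPKM in LL, against 35.5, 50.0, and 30.1 FPKM in ML. Their log2 fold changes were −2.08 and −1.70 with that library and −0.90 and −1.45 without it (adjusted p = 0.17 and 0.015), so *Cre01.g005200* missed the adjusted p threshold alone.

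Translation genes moved by small amounts and none was called. Of 75 cytosolic ribosomal protein genes 74 were above 0 and 72 had no overlap between groups (14.5% of all genes tested), with a median log2 fold change of 0.25, which was −0.01 after quantile normalization of the libraries. In limma 58 of the 75 passed the adjusted p threshold without reaching the fold threshold, where 1772 of the 14602 genes tested passed it at any fold. The summed level of the 75 genes was 270000 to 289000 FPKM in LL and 226000 to 233000 FPKM in ML. The FPKM of all genes summed to 628506 to 679041 in LL and 563175 to 571596 in ML. Plastid ribosomal protein genes leaned the other way, with 34 of 37 below 0 (median −0.16). So did 16 of 17 ribosome biogenesis genes (−0.30, or −0.19 without LL replicate 1). Of 33 aminoacyl-tRNA synthetase genes, 28 were below 0 (−0.22, or −0.13 without LL replicate 1 and ML replicate 2). In these 3 lists 0, 2, and 4 genes passed the adjusted p threshold, beside the 1772 of 14602 over all genes tested. LL lay wholly below ML for 15, 8, and 13 of their genes (14.4% of all genes tested), and wholly above for 2, 0, and 0 (14.5% of all). The medians of these 3 lists, and of the lists on carbon concentration, photoprotection, the Calvin-Benson cycle, DNA replication, and chlorophyll, kept their sign under median scaling and quantile normalization.

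The day phase of the changed mRNAs was read from the HL libraries, which are in neither group. Of the 194 decreases, 117 (60.3%) had their highest mean FPKM in HL at +10, before dusk, against 22.3% of all genes tested. Of the 236 increases, 96 (40.7%) peaked at +6, against 17.0% of all. Few decreases (6.19%) peaked at +2, where 24.5% of all genes did. Without LL replicate 1 the shares were 68.3% of decreases at +10 and 37.8% of increases at +6.

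**Figure D4:**
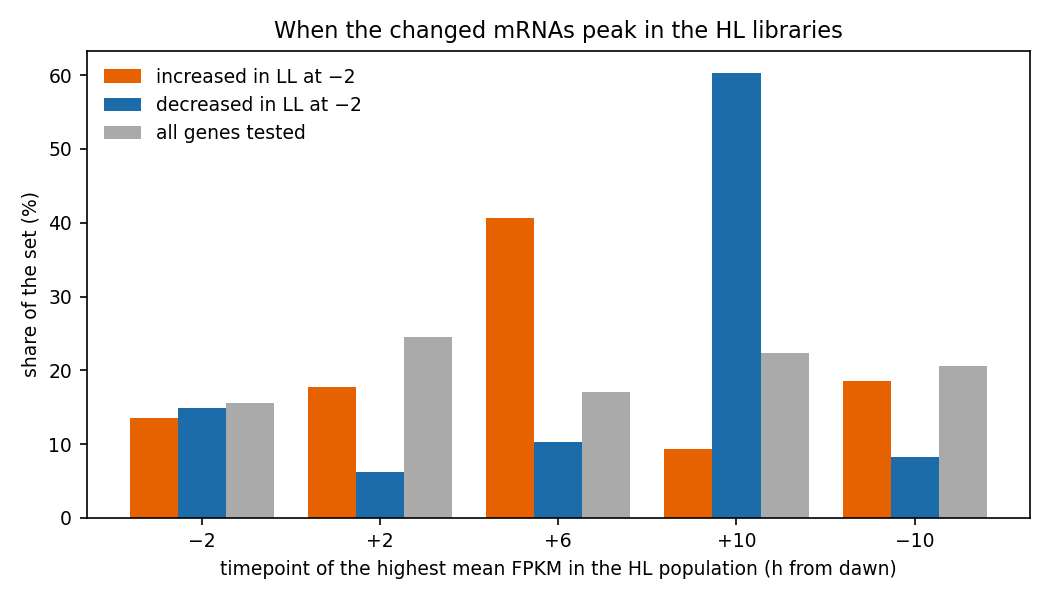
Share of genes, in percent, by the timepoint at which their mean FPKM was highest in the HL population, for mRNAs increased in LL at −2 (orange), decreased in LL at −2 (blue), and all genes tested (gray). Of the decreases 60.3% peak at +10 and of the increases 40.7% at +6, against 22.3% and 17.0% of all genes tested.

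The differences at −2 were set beside those at the other timepoints, where LL had 625 increases and 471 decreases at +2 (4.28% and 3.23%), 287 and 280 at +6 (1.97% and 1.92%), 522 and 201 at +10 (3.57% and 1.38%), and 416 and 292 at −10 (2.85% and 2.0%). Of the increases at −2, 109 of 236 were called as increases at no other timepoint. Of the decreases, 130 of 194 were called as decreases at no other. Calls in the opposite direction were left out of these counts. The increases shared 66 mRNAs with those at +2 (28.0% of the −2 calls and 10.6% of the +2 calls) and 69 with those at −10 (29.2% and 16.6%). The decreases shared 33 with those at +10 (17.0% and 16.4%) and 9 with those at +6, whereas 40 decreases of −2 were increases at +6. These comparisons share no library, although each culture gave 1 library to every timepoint.

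DNA replication genes showed the turn in direction over the day. Their median log2 fold change was 0.25 at +2, 0.57 at +6 (8 increases), −0.99 at +10 (17 decreases), and 0.70 at −10 (6 increases), against −0.72 at −2. At −10, 2 h into the night, the 37 genes summed to 209 FPKM in LL and 108 FPKM in ML (means of 3 libraries), and at −2 to 95.0 FPKM in LL and 200 FPKM in ML. *MIND1* averaged 23.8 FPKM in LL and 8.91 FPKM in ML at −10, an increase of 1.27 on the log2 scale. Its libraries there had 11.8, 19.8, and 40.0 FPKM in LL, against 7.4, 5.05, and 14.3 FPKM in ML. The groups overlapped, and replicate 3 was the highest in both. *PCN1* was likewise increased at −10, by 1.24, and decreased at +10, by 1.02.

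*NAR1B* and *HLA3* were called in the other direction at +10, at −1.45 and −1.81, and *LHCSR3B* and *LHCSR3A* at +6, at −3.87 and −3.85. At that time *LHCSR3B* averaged 21.9 FPKM in LL and 330 FPKM in ML, whereas at −2 it averaged 15.8 FPKM in LL and 2.79 FPKM in ML. *FBA3* and *FAD6* were increased early in the night as well, by 1.85 and 1.42 at −10. *ROC75*, *IAD2*, *DGTT1*, and *PFR1* were called at no timepoint other than −2.

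**Figure D5:**
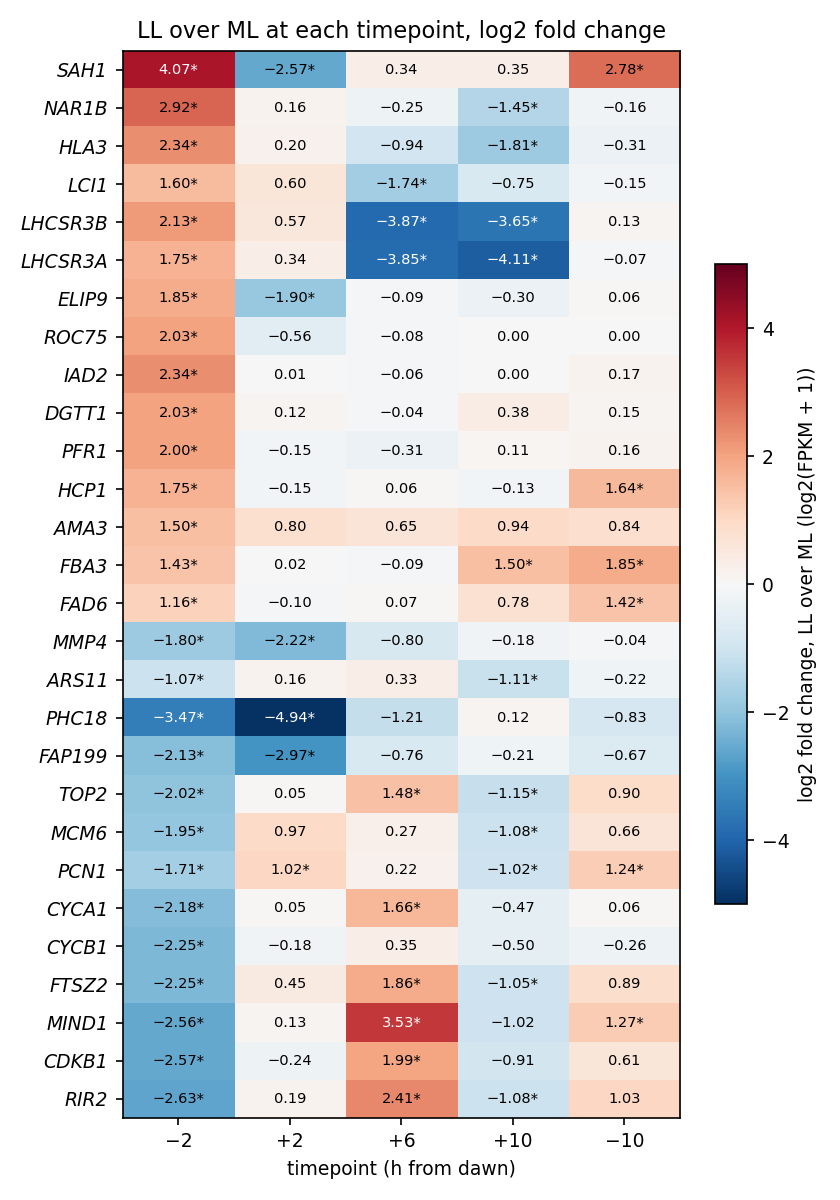
Log2 fold change of LL over ML (fit on log2(FPKM + 1)) for 28 genes at the 5 timepoints, in hours from dawn, with called changes starred. Genes of replication, mitosis, and chloroplast division are blue at −2, and their turn toward red at +6 or −10 differs in size. *MIND1* is at −2.56 at −2 and 3.53 at +6, whereas *CYCB1* is at 0.35 at +6 and −0.26 at −10, called at neither. *ROC75*, *IAD2*, *DGTT1*, and *PFR1* carry a star at −2 alone.

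Interaction contrasts of the same fit asked whether the LL difference itself changed with time. Against −10, 2122 genes (14.5% of those tested) had a different LL effect at −2 at an adjusted p under 0.01, among them 116 of the 236 increases and 118 of the 194 decreases. Against +2, 2654 genes (18.2%) differed, among them 120 increases and 94 decreases. Of the increases that differed from −10, 113 were larger at −2, and of the decreases 117 were. Since calling a gene at −2 favors a large value there, the shares among the calls are given as a description.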

How the data were processed

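The 6 libraries compared are the LL and ML libraries whose labels give the −2 timepoint, 3 of each; the labels say that RNA was purified in batches, not which library was in which. Per the methods, the authors aligned stranded 50 nt reads with STAR 2.4.0j to the CC-4532 v6.1 genome and made FPKM values with cuffdiff 2.0.2; the deposited FPKM table covers 17609 genes, 4326 of them with a symbol, in every library separately. The authors' deposited table of group means was not used, and 0 columns of other samples were present. The authors tested read counts, which were not analysed here.

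limma 3.58.1 in R 4.3.3 was fitted to log2(FPKM + 1) in 1 model of 15 groups over 45 libraries, with an empirical Bayes trend, for genes that reached 1 FPKM in 3 or more libraries. Calls required a difference of more than 1 on the log2 scale in either direction and an adjusted p (Benjamini-Hochberg, over all 14602 genes) under 0.01, and interactions that p alone. All p-values in the text are from limma. Relative depth came from whole multiples of the FPKM steps, with 71.9% of 7935 low values at a whole multiple within 0.02 on the log2 scale; for LL replicate 1 it rests on 19 values. Tables and figures used Python 3.11.15, numpy 2.4.6, pandas 2.3.3, scipy 1.17.1, and matplotlib 3.10.9. Both the fit and the depth estimate were tested on simulated data.

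The comparison and the 41 gene lists were chosen with earlier results of these data known. Lists are described by counts and medians, without a test. Genes were named by a rule. It took the 8 largest increases and decreases with annotation and the 2 without, separate between groups and called without LL replicate 1. It also took up to 3 such members of each list, and fixed genes of photoprotection, carbon uptake, clock, and cell cycle. The 2 in each direction with the smallest interaction p against −10 were included. So were the 2 largest with annotation, in each direction, of those lost without LL replicate 1. Other members of small counts were named after their values were seen. The fit was repeated with pseudocounts of 0.1 and 5, no filter, a mean of at least 5 FPKM, the 6 libraries alone, the 18 night libraries, a replicate block, culture as a random effect, array weights, no trend, median scaling, quantile normalization, an adjusted p of 0.05, and each library left out. Added after seeing the data were 5 libraries alone and the joint omission of LL replicate 1 and ML replicate 2.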

Additional observations from a re-analysis of the deposited data

Results flagged for a closer look

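The LL difference at −2 was tested against the LL difference at other timepoints, as an interaction in limma (adjusted p under 0.01). Against −10 it passed for 22 of 34 named increases and 22 of 29 named decreases. Against +2 it passed for 26 and 21. Many of these genes, such as *NAR1B* and *HLA3*, were not called at the other timepoint. The genes given first are those called in opposite directions. *SAH1* was increased at −2 and decreased at +2, an interaction of 6.64 on the log2 scale (adjusted p = 1.2e-15); at +2 it averaged 447 FPKM in LL and 2650 FPKM in ML. *ELIP9* behaved likewise, with an interaction of 3.74 against +2 (adjusted p = 2.8e-09) and means at +2 of 9.55 FPKM in LL and 38.1 FPKM in ML. *PHC8* was increased at −2 and decreased at −10, an interaction of 2.38 (adjusted p = 3.1e-06).

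Among the decreases, *NSG1* was increased both at −10 and at +2, with interactions of −3.08 and −5.04 (adjusted p = 1.4e-05 and 1e-09), and *PCN1* too, with −2.94 and −2.73 (adjusted p = 1.1e-06 and 2.6e-06). *NSG10* and *MIND1* were increased at −10, with interactions of −2.85 and −3.82 (adjusted p = 1.5e-05 and 5.6e-07). *Cre11.g483351*, a pherophorin homolog, was increased at +2, an interaction of −3.40 (adjusted p = 5.8e-06). *Cre09.g412400*, without annotation, was increased at −10, at −3.25 (adjusted p = 8.3e-08).

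*Cre09.g412400* and the 3 mRNAs that follow, which were not called at −10, were named for their small interaction p against −10, so these values describe that choice. *IAD2* and *Cre12.g514400* had interactions of 2.17 and 1.38 against −10 (adjusted p = 7.2e-13 and 5.1e-12), and *Cre02.g095087* one of −1.84 (adjusted p = 1.4e-08). Over all genes the interaction passed for 2122 against −10 and for 2654 against +2.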

How the results depend on the processing

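Counts depended most on how the low values and the spread were treated. Increases numbered 374 with a pseudocount of 0.1, 89 with 5, and 153 among genes averaging at least 5 FPKM; decreases numbered 522 with a pseudocount of 0.1 and 57 with 5. In the 6 libraries alone, limma called 17 increases and 1 decrease, and 233 of the 236 and 185 of the 194 calls kept their sign at an unadjusted p under 0.05; in 5 libraries alone, without LL replicate 1, it called 19 and 1. The night libraries gave 101 decreases and 1007 genes for the interaction with −10, and an adjusted p under 0.05 gave 3616 genes against −10 and 4321 against +2. Each library left out in turn gave 188 to 349 increases and 111 to 307 decreases, both highest without LL replicate 3, and 1660 to 2417 and 2296 to 2829 interactions against −10 and +2. Without both LL replicate 1 and ML replicate 2 there were 170 increases and 68 decreases, 62 of these among the 194. With a replicate block there were 237 increases, 194 decreases, and 2238 and 2722 interactions. Same-numbered LL and ML libraries at −2 correlated at 0.058, 0.005, and 0.012 in their deviations, and other pairs at −0.087 to 0.058. These values rest on the 6 libraries, the shallow LL replicate 1 among them. They cannot decide whether same-numbered libraries share more than a number. Of 1783 values of named genes under the alternatives, 1595 stayed on their side of the threshold, 180 lost it, 8 gained it, and 0 reversed. In LL replicate 1 a fragment was worth a median of about 0.136 FPKM, which limits the precision of its low values.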

Other observations

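Of 6 genes of the division machinery, a list gathered after the values were seen, 5 were decreased in LL, or 4 without ML replicate 2. *FTSZ1*, partner of *FTSZ2* in the division ring, had 2.28, 0.809, and 1.25 FPKM in LL, against 6.37, 17.1, and 4.45 FPKM in ML. *MINE1*, which with MinD keeps the ring at midplastid, had 0.15, 0.14, and 0.235 FPKM in LL, against 3.04, 10.6, and 2.23 FPKM in ML. *ARC6* was at −1.09, and *MINE2*, at −0.80 with overlapping groups, was not called. Of 8 genes of the SMC family, *SMC2* and *SMC4* of condensin were decreased, by 1.37 and 1.50 (the family had 1 decrease without ML replicate 2), while *SMC1* and *SMC3* of cohesin were at −0.05 and 0.16 and not called.

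Sets chosen in the same way described further increases. In the methyl cycle, *METM1*, S-adenosylmethionine synthetase, had 693, 589, and 442 FPKM in LL, against 227, 252, and 169 FPKM in ML, and rose by 1.40 alongside *SAH1*, while the methionine synthase genes *METE1* and *METH1* were at 0.18 and 0.05 and not called. Of 7 nucleotide sugar genes 4 were increased, but only *UPT1* was also called without LL replicate 1, with 84.9, 65.6, and 44.2 FPKM in LL, against 15.1, 21.9, and 17.3 FPKM in ML. Of 19 low-CO2-inducible genes with an LCI symbol 3 were increased, and *LCI23* remained called without LL replicate 1, at 1.98. Of 26 cytochrome P450 genes tested 4 were increased, among them *CYP743B1* by 1.87, and all 4 were called without LL replicate 1.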
